A study of Mus musculus with 8 samples.

Results

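H3K27ac was compared between WT and GrnKO microglial nuclei at 9 genes of iron handling and the oxidative stress response, namely Slc11a2, Tfrc, Ftl1, Fth1, Ncoa4, Slc40a1, Ireb2, Hmox1 and Nfe2l2. The members were the table rows whose gene name equals one of these symbols, which gave 130 of 129304 regions and 9 of 18707 gene names. H3K27ac, the acetylation of lysine 27 of histone H3, marks active promoters and enhancers, and ChIP-seq, the sequencing of immunoprecipitated chromatin, measured it here. The WT group was wild-type C57BL/6 and the GrnKO group was C57BL/6 with Grn knocked out. The product of Grn is progranulin, which is secreted and also works inside lysosomes. All mice were aged 2 years, and no treatment was named in the labels. Nuclei came from frozen hemibrains and were sorted as PU.1+, OLIG2- and NEUN-, which selects myeloid nuclei and leaves out oligodendrocyte lineage and neuronal nuclei. Each replicate pooled sorted nuclei of 2 mice, and each genotype had 2 replicates, each with an H3K27ac and an input library. Pooling hides the spread between single mice, so p-values measure the spread between pools. In sorted nuclei measured in bulk, fewer nuclei of a type and less acetylation per nucleus cannot be told apart.

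Cells take up iron as transferrin-bound ferric iron through the transferrin receptor, or as ferrous iron through the transporter DMT1, which also moves iron out of endosomes and lysosomes. Iron that is not used is held in ferritin, a shell of heavy and light chains that is delivered to lysosomes for breakdown, and surplus leaves the cell through ferroportin. Macrophages also release iron from heme with heme oxygenase, and the transcription factor NRF2 raises ferritin, heme oxygenase and antioxidant genes when oxidants or electrophiles disable its repressor KEAP1.

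The promoters of the members with a rise in summed H3K27ac are shown first, as far as the RefSeq promoter table of build GRCm38.p6 holds them. It has no promoter entry for Slc11a2, Hmox1 or Slc40a1, though RefSeq has gene bodies for them. Each line gives the 250 bases before the start site, 5′ to 3′ on the gene's strand. Capitals mark the core of the antioxidant response element, the DNA element bound by NRF2, searched as TGACNNNGC on both strands.
Nfe2l2: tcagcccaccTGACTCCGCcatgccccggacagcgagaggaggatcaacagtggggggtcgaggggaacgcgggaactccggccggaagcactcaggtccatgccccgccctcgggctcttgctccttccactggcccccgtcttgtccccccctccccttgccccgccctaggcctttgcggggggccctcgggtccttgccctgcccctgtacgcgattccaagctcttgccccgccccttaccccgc
Ftl1: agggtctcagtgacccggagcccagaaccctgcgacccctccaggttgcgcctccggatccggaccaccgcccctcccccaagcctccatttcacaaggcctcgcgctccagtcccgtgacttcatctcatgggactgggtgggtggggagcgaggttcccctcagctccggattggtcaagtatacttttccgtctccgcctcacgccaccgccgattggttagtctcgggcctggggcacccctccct
Fth1, upstream start: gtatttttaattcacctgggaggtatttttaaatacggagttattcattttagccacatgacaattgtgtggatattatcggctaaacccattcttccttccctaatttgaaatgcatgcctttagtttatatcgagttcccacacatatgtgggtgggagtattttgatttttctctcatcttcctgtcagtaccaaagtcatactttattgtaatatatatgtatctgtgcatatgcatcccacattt
Fth1, main start: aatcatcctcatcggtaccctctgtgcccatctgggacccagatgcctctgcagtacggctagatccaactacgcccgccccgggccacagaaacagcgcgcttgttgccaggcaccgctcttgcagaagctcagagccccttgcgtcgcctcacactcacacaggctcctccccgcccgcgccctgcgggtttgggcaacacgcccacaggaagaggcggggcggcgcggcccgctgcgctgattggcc

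The Nfe2l2 window is chr2:75704664-75704913 on the minus strand, the Ftl1 window is chr7:45459887-45460136 on the minus strand, and the main Fth1 window is chr19:9982396-9982645 on the plus strand. These 3 were rich in G and C, at 70.4%, 65.2% and 66.8%, against a median of 52.4% over all promoters of the table. They held 18, 17 and 21 CpG dinucleotides, against a median of 6. The window of the upstream Fth1 start, chr19:9980350-9980599 on the plus strand, lay below both medians, with 34.8% G and C and 3 CpG dinucleotides, and no region of the table contains it. The Nfe2l2 match TGACTCCGC lies 240 to 232 bases before the start. The only other match among the 10 windows of 6 members, TGACCTGGC, lies 44 to 36 bases before a start of Ncoa4. The element was found in 10.2% of 32851 promoters of the same length. The E-box CACGTG, also searched on both strands, was found in 0 of the 10 windows and in 6.02% of all promoters. A match describes the letters and does not show a site in use.

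Values are scaled tags, which are aligned tags at a library total of 10000000, after TMM scaling unless stated otherwise. Fold values are ratios of group means, while log2 changes come from the fit to log2(value + 1), so they need not match. H3K27ac libraries held 15491642.5 to 20030832 tags and input libraries 4078179 to 14415969. Of the tags, 49.4% lay in the listed regions in WT replicate 1, against 63.3% to 65.7% in the other H3K27ac libraries and 4.02% to 4.79% in the inputs. At the targeted gene the data matched the labels, as the Grn promoter region at chr11:102429909-102430709 held 357 and 300 in WT and 0 in both GrnKO libraries, where 3 tags would have been 1.83 and 1.5 scaled tags before TMM scaling. The 8 microglia markers were all measured, with summed levels of 49326 and 55084 in WT against 41675 and 44054 in GrnKO, and 5 of the 8 were lower in GrnKO. For 7 border macrophage markers the WT sums were 1232 and 1211, against GrnKO sums of 1721 and 1558. Of these, 2 were higher, Ms4a7 (166 and 147 against 558 and 425) and F13a1 (172 and 159 against 294 and 225). Mrc1, Lyve1, Cd163, Pf4 and Cbr2 did not pass the test, and no marker was at 0. Oligodendrocyte lineage markers summed to 1961 to 1996 in WT and 2543 to 2685 in GrnKO, mostly from Mbp, which was higher in GrnKO, while Mog was lower, with 173 and 170 in WT and 70.9 and 70.5 in GrnKO. Endothelial and mural markers summed to 506 to 582 and 1035 to 1043, mostly from Flt1. Lymphocyte markers summed to 203 to 216 and 468 to 618, mostly from Ms4a1, with Cd3e at 5.23 or less. Neuron markers summed to 214 to 271 and 152 to 181, astrocyte markers to 72.1 to 110 and 85.5 to 97.7, and monocyte and neutrophil markers to 2312 to 2890 and 2300 to 2423, with S100a9 at 0 in 3 of 4 libraries and S100a8 higher in GrnKO (0 and 5.23 against 20.7 and 18.9). In the monocyte and neutrophil list, Ccr2 (406 and 399 against 322 and 254) and Plac8 (178 and 185 against 140 and 116) were lower in both GrnKO libraries, without a call. Csf3r and Cxcr2 overlapped between the groups, and the list's median log2 change was -0.20. The part of these sums in the results on iron genes was not tested.

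Summed over its regions, H3K27ac rose in GrnKO at 5 of the 9 genes, which were Slc11a2, Hmox1, Ftl1, Nfe2l2 and Fth1, and fell at 0 of them. Of all 15380 genes tested, 9.54% were higher and 4.88% lower, so that 66.2% of the genes called were higher. The 9 genes were chosen with earlier results of these data known, so this comparison is not an independent test. The test was limma with Benjamini-Hochberg adjustment over all genes at 0.05. The groups did not overlap at 7 of the 9 genes: both GrnKO values were above both WT values at 5 of them (27.4% of all genes) and below at the other 2, Ncoa4 and Ireb2 (26.6% of all genes). The median log2 change of the 9 sums was 0.32, against -0.0099 over all genes. The rise ranged from 1.25-fold at Fth1 to 3.06-fold at Slc11a2. Without GrnKO replicate 1, and likewise without GrnKO replicate 2, 1 of the 9 genes remained past the threshold, Slc11a2. The share of all genes called higher fell as well, to 4.6% and 5.32%. The adjusted p of limma was then 0.165 and 0.0687 for Ftl1, 0.229 and 0.229 for Fth1, 0.201 and 0.0624 for Hmox1, and 0.192 and 0.148 for Nfe2l2. With the authors' scaling alone, 3 of the 9 genes and 10.6% of all genes were higher, 90.8% of the genes called were higher, and the median change of all genes was 0.18. Fth1 and Nfe2l2 then no longer passed (adjusted p = 0.238 and 0.185, limma). After subtraction of the log2 change in input 0 of all 15380 genes were called by limma, with 858 at an unadjusted p under 0.05.

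**Figure D1:**
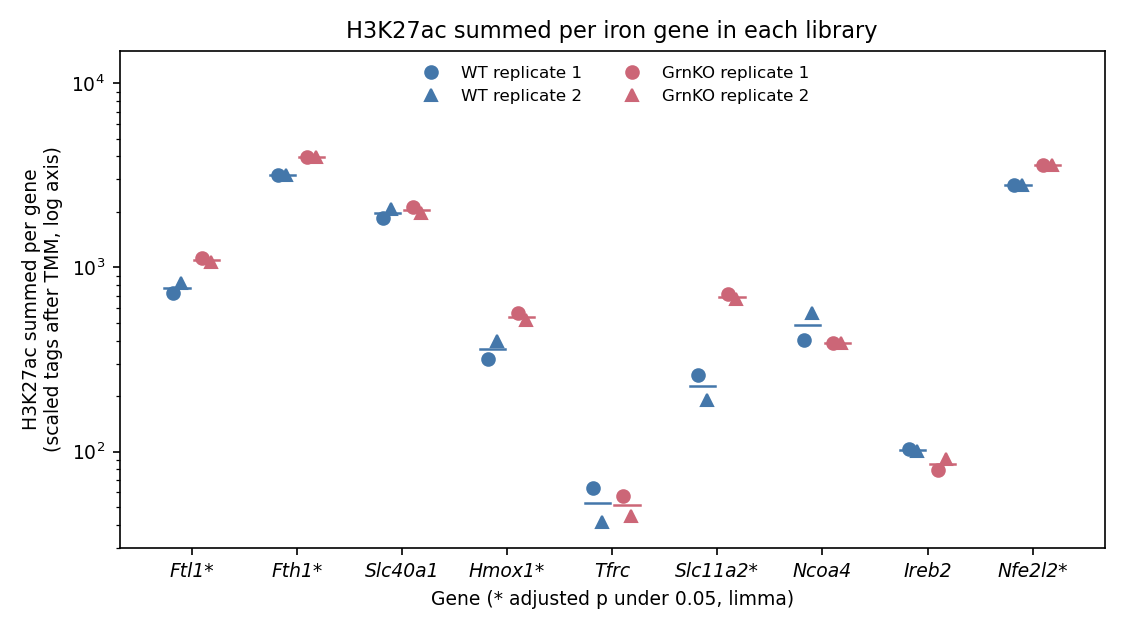
H3K27ac summed per gene, in scaled tags on a log axis, for each of the 9 genes. Points are the 4 libraries, short lines are group means, and asterisks mark the 5 genes past the threshold. At these 5 genes both GrnKO points lie above both WT points, and Slc11a2 has the widest gap.

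At the level of regions, 114 of the 130 passed the filter on low tags, and the other 16 held at most 12.5 scaled tags in any library. H3K27ac was higher in GrnKO in 14 tested regions (12.3%) and lower in 0, while 6.8% of all 80728 tested regions were higher and 2.92% lower (limma, Benjamini-Hochberg). Both GrnKO values lay above both WT values in 54 tested member regions (47.4%), against 27% of all tested regions, and below in 11, against 25.6%. The median log2 change of the tested member regions was 0.32, against -0.0020 over all regions. With the authors' scaling alone the regions called were 95.2% higher ones, in place of 70%. Regions overlap each other, so that 80 of the 130 share bases with another, and the 14 regions fell into 12 non-overlapping stretches. Without GrnKO replicate 1 the count of higher regions was 4, without GrnKO replicate 2 it was 9, and without WT replicate 1 or 2 it was 26, with 2 lower without WT replicate 1. The share of all tested regions called higher moved too, to 2%, 2.59%, 9.86% and 10.8% in this order.

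Of the 14 regions that rose, 13 were over 1000 bp from the start they were assigned to and 1 was within 1000 bp, while 91 of the tested regions were distal by this measure and 23 proximal. Of all tested regions 73.1% were distal, and of all regions called higher 85.9%, so that most calls were distal there too. The gene of a region is the one with the nearest start in the deposited table, which does not show that the region acts on it. By RefSeq gene bodies, 12 of the 130 regions lay only in the body of another gene: 5 of Ftl1 in Gys1, 6 of Fth1 in Best1 and 1 of Hmox1 in Tom1. None of the 14 regions that rose was among them.

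**Figure D2:**
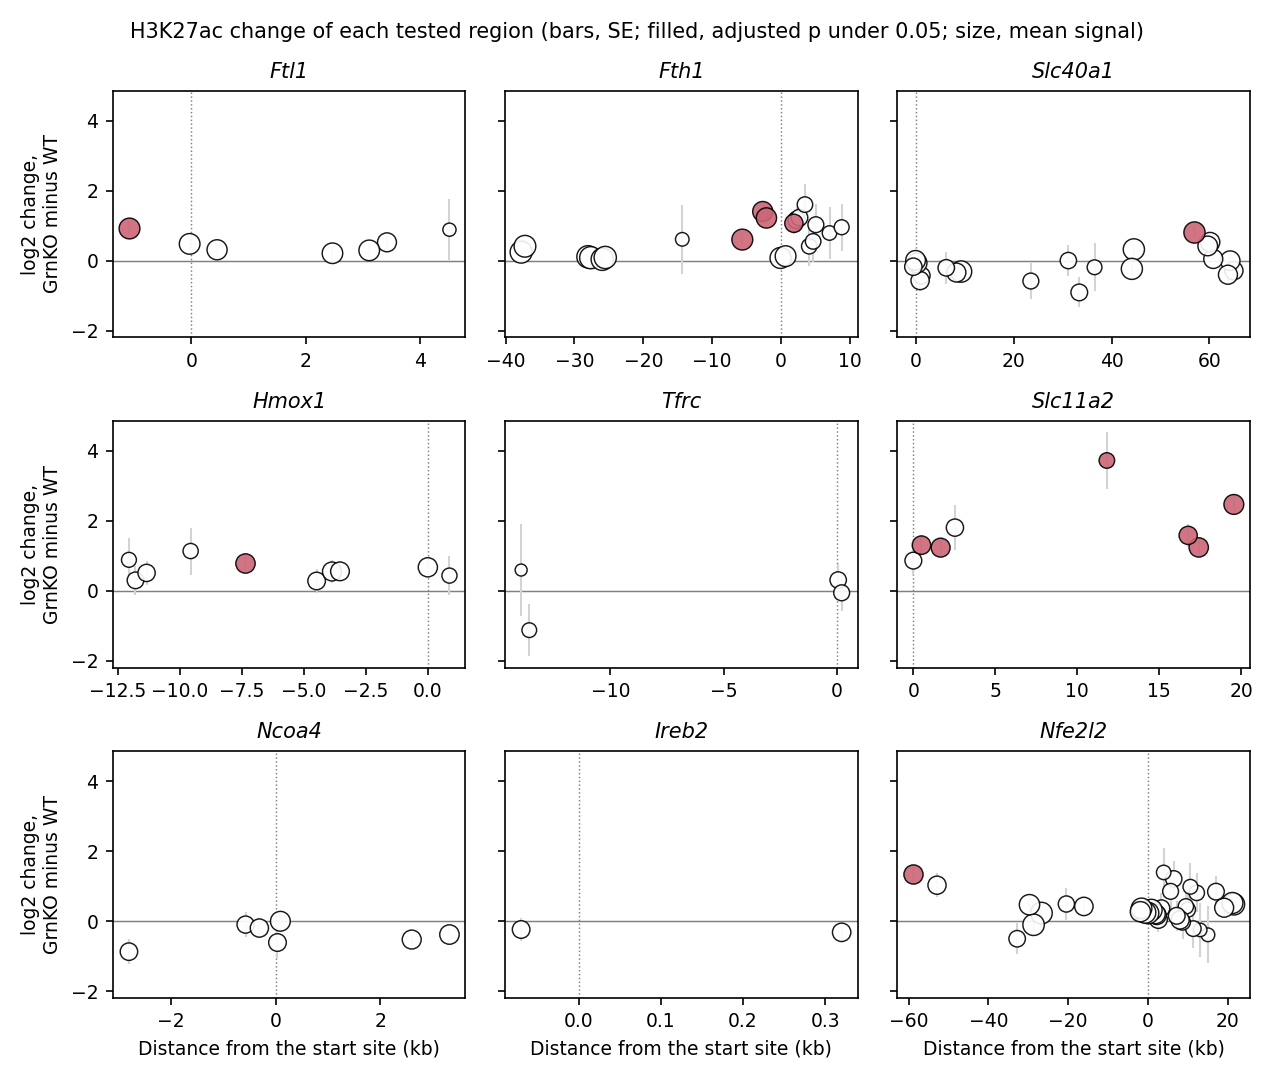
log2 change in H3K27ac of each tested region against its distance from the assigned start site in kb, with 1 panel per gene. Bars are SE, filled points passed the threshold and point size follows the mean signal. The 8 Slc11a2 regions all lie above 0, and the filled points of the other genes lie away from the dotted start site.

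Among uptake genes, Slc11a2 had the largest rise of the 9. Slc11a2 encodes DMT1, the proton-coupled transporter of ferrous iron. Its 8 regions summed to 261 and 192 in WT and 713 and 672 in GrnKO. Both GrnKO libraries were far above both WT libraries. The means were 226 ± 48.9 and 693 ± 29.0 (SD, n = 2), a log2 change of 1.63 (SE 0.17, adjusted p = 9.94e-06, limma), which ranks at the 97.4th percentile of all genes tested. In the inputs the same regions held 0 and 29.4 scaled tags in WT and 33.3 and 9.18 in GrnKO, so that the change after subtraction of input, -0.14, rests on few tags.

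H3K27ac rose in 6 of the 8 Slc11a2 regions, and all 8 had both GrnKO values above both WT values. The strongest rise with substantial signal was in intron 9 of 16, at chr15:100403105-100403905, 19.6 kb into the gene. Its values were 50.4 and 23.3 in WT, against 198 and 191 in GrnKO, a log2 change of 2.47 (SE 0.29, adjusted p = 4.18e-05, limma) and a ratio of group means of 5.28. It was the highest region of the gene in both GrnKO libraries and in neither WT library. In intron 7 of 16, 17.4 kb into the gene, chr15:100405247-100406047 held 50.4 and 54.0 in WT and 128 and 121 in GrnKO (log2 change 1.24, adjusted p = 0.00234, limma). The neighbouring region at exon 6 of 16, chr15:100405891-100406691, overlaps it and held 20.3 and 29.9 against 72.4 and 79.6 (1.58, adjusted p = 0.00363, limma). In both, the WT and GrnKO values were well apart.

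Closer to the start, a region of intron 1 at chr15:100420989-100421789, 1.67 kb into the gene, held 51.2 and 35.6 in WT and 107 and 96.4 in GrnKO (log2 change 1.23, adjusted p = 0.00673, limma). The other 2 regions that rose were named after their values were seen. One, in intron 2 of 15 at chr15:100410851-100411651, held 0 and 3.67 in WT and 28.6 and 26.5 in GrnKO. Its WT signal was next to none, and it passed the filter on low tags only through its GrnKO values. It is still counted among the regions that rose. Its log2 change of 3.72 (SE 0.82, adjusted p = 0.00679, limma) had an adjusted p of 0.242 in DESeq2's test. The size of this change rests on the near-zero WT values: it was 2.31 with a pseudocount of 5 and 2.63 to 4.83 with 1 library left out. The other, centred 0.496 kb past the start at chr15:100422159-100422959, held 36.4 and 29.1 against 80.6 and 83.1 (1.30, adjusted p = 0.00714, limma) and was the only proximal region of all members that rose. The table annotates it as the promoter of another transcript, of Gm5475, inside the Slc11a2 gene body. The region at the start itself, chr15:100422654-100423454, held 24.2 and 12.8 in WT and 33.9 and 32.1 in GrnKO, with a log2 change of 0.86 that did not pass (adjusted p = 0.224, limma). It passed without WT replicate 1, at 1.31 (adjusted p = 0.0192, limma), and was 0.45 without WT replicate 2. Without GrnKO replicate 1 the adjusted p of limma was 0.0669 for the intron 7 region, 0.134 for the intron 1 region, 0.285 for the intron 2 region and 0.106 for the proximal one. Without GrnKO replicate 2 it was 0.0649 for the exon 6 region, 0.256 for the intron 2 region and 0.103 for the proximal one. The intron 9 region passed without any 1 library.

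**Figure D3:**
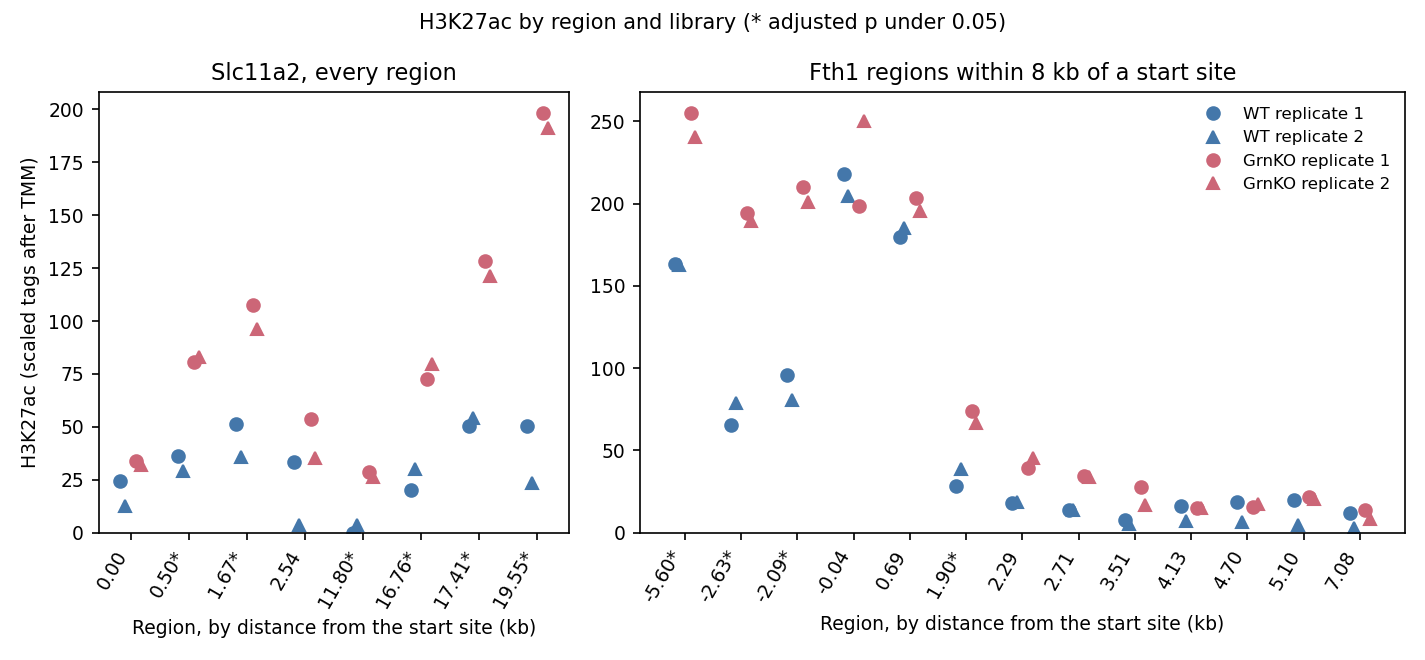
H3K27ac in scaled tags for every region of Slc11a2 and for the Fth1 regions within 8 kb of a start site, ordered by distance from the start in kb. Points are the 4 libraries and asterisks mark regions past the threshold. The region 19.55 kb into Slc11a2 shows the widest gap, and at Fth1 the gap is widest 2.63 and 2.09 kb before a start.

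Tfrc, the transferrin receptor, carried little H3K27ac and no detectable difference. Its 4 regions summed to 63.4 and 41.3 in WT and 57.7 and 44.8 in GrnKO, with overlapping groups. The log2 change was -0.0099 (SE 0.34, adjusted p = 0.991, limma). The SE is wide for a sum this low, and the sign of the change moved with the replicate left out, from -0.29 to 0.30. The region at its start, chr16:32608549-32609349, held 21.5 and 15.98 in WT and 29.1 and 18.5 in GrnKO (log2 change 0.31, adjusted p = 0.736, limma).

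Both ferritin chains had higher summed H3K27ac in GrnKO, and in each the clearest rise was upstream of the start. Ferritin genes have many processed copies in the genome, and how reads with several matches were treated is not given in the sources used here, so values at their exons are uncertain. Ftl1, the light chain, which aids the formation of the iron core, summed to 726 and 826 in WT and 1124 and 1069 in GrnKO over 9 regions. The groups were apart, at 776 ± 70.5 and 1097 ± 38.4 (SD, n = 2), or 1.41-fold (log2 change 0.50, SE 0.12, adjusted p = 0.00951, limma). All 7 tested regions had both GrnKO values above both WT values, and 1 passed the threshold. It has the highest mean over the 4 libraries, though not within WT, and lies at chr7:45460577-45461377, 1.09 kb before the start and annotated as near the transcript end of the neighbouring gene Bax. It held 134 and 134 in WT and 267 and 246 in GrnKO (log2 change 0.93, adjusted p = 0.00171, limma). This call was lost without GrnKO replicate 1 (adjusted p = 0.0651, limma). The promoter region printed in part above, chr7:45459517-45460317, held 124 and 181 in WT and 206 and 213 in GrnKO. Its log2 change of 0.48 did not pass (adjusted p = 0.136, limma), and the WT libraries differed from each other by more than WT replicate 2 differed from GrnKO. It was 0.77 without WT replicate 2, with a call (adjusted p = 0.00241, limma), and 0.21 without WT replicate 1.

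Fth1, the heavy chain, whose ferroxidase site oxidises ferrous iron for storage, had the highest sum of the 9 genes. Over 21 regions it reached 3181 and 3174 in WT, against 3958 and 3999 in GrnKO. The replicates of each genotype were close, at 3177 ± 5.47 and 3978 ± 28.4 (SD, n = 2), and the rise was 1.25-fold (log2 change 0.32, SE 0.08, adjusted p = 0.0152, limma). After subtraction of the change in input the sum changed by -0.38. Its inputs held 129 and 22.5 in WT and 60.0 and 99.0 in GrnKO. All 21 regions had a positive change, of which 4 passed. The clearest were an overlapping pair before an upstream RefSeq start of Fth1. The first of the pair, chr19:9977573-9978373, held 65.7 and 78.8 in WT and 194 and 190 in GrnKO (log2 change 1.40, adjusted p = 0.000265, limma). The second, chr19:9978109-9978909, held 95.8 and 80.4 against 210 and 201 (1.22, adjusted p = 0.000582, limma). At both, GrnKO was more than WT in every library, and both passed without any 1 library.

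Smaller rises were found 5.60 kb before the same start and inside the gene. The first, chr19:9974604-9975404, held 163 and 163 in WT and 255 and 240 in GrnKO (log2 change 0.60, adjusted p = 0.0260, limma). The second, chr19:9984150-9984950, 1.90 kb past the main start, held 28.2 and 38.5 against 73.8 and 66.4 (1.07, adjusted p = 0.0316, limma). Neither kept its call without a GrnKO replicate, with adjusted p of 0.370 and 0.197 for the first and 0.368 and 0.186 for the second without replicate 1 and 2 (limma). The main promoter region, chr19:9982207-9983007, which holds the Fth1 sequence printed above, did not share the rise. It held 218 and 205 in WT and 199 and 250 in GrnKO, with overlapping groups (log2 change 0.08, adjusted p = 0.839, limma). The region with the highest mean over the 4 libraries, at 452 next to 451 for another upstream region, is chr19:9952161-9952961. It lies 28.0 kb before the upstream start. It led in WT replicate 2 only and likewise overlapped between groups, with 396 and 475 against 467 and 469 (0.11, adjusted p = 0.670, limma).

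Ncoa4, the receptor that brings ferritin to autophagosomes for breakdown, did not pass the test, and its values were lower in GrnKO. The 7 regions summed to 404 and 564 in WT and 386 and 390 in GrnKO. Both GrnKO libraries were below both WT libraries, but the WT libraries differed widely (484 ± 113 against 388 ± 2.36, SD, n = 2). The log2 change was -0.30 (SE 0.16, adjusted p = 0.274, limma), and without WT replicate 1 it was -0.54 with an adjusted p of 0.00553, and without WT replicate 2 it was -0.038 with an adjusted p of 0.895 (limma). None of its 7 regions had a positive change, and 3 had both GrnKO values below both WT values. At its start regions the change was -0.0064 at chr14:32159578-32160378 and -0.61 at chr14:32165222-32166022 (adjusted p = 0.992 and 0.420, limma). The latter was -1.26 without WT replicate 1 (adjusted p = 0.00552, limma) and 0.055 without WT replicate 2.

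Slc40a1, ferroportin, the only known iron exporter of mammalian cells, showed no difference in its sum and a rise in 1 distant region. Its 25 regions summed to 1854 and 2081 in WT and 2137 and 1985 in GrnKO, with overlapping groups (log2 change 0.07, SE 0.10, adjusted p = 0.732, limma). The sign of the change moved with the replicate left out, from -0.012 to 0.17. The log2 changes of its regions ranged from -0.91 to 0.82, with 7 of 21 tested above 0, 1 higher past the threshold and 0 lower. The region that rose lies between genes, 56.8 kb past the start at chr1:45868427-45869227, beyond the end of the gene. It held 182 and 179 in WT and 338 and 301 in GrnKO (log2 change 0.82, adjusted p = 0.00234, limma). It no longer passed without GrnKO replicate 1 (adjusted p = 0.105, limma). The region with the highest mean over the 4 libraries, in intron 5 at chr1:45915936-45916736, held 276 and 301 in WT and 226 and 238 in GrnKO. It led in both WT libraries, while the region that rose led in both GrnKO libraries. Here the GrnKO values were the lower ones, and the change of -0.31 did not pass (adjusted p = 0.214, limma). The start region, chr1:45925236-45926036, held 90.7 and 130 against 108 and 110 (0.0064, adjusted p = 0.991, limma), and its change ran from -0.24 to 0.28 with the replicate left out.

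Ireb2, the iron regulatory protein IRP2, which binds iron-responsive elements of ferritin and transferrin receptor messages when iron is low, had low values and no call. It summed to 104 and 101 in WT, against 79.5 and 91.0 in GrnKO. The GrnKO values were lower, and the log2 change of -0.26 (SE 0.24) did not pass (adjusted p = 0.559, limma). It ran from -0.35 to -0.16 with the replicate left out, both ends from leaving out a GrnKO replicate. Only the 2 proximal regions of its 5 could be tested. The stronger of them, chr9:54863675-54864475, held 68.4 and 56.0 in WT and 46.7 and 52.1 in GrnKO (log2 change -0.32, adjusted p = 0.534, limma), and the one nearest to the start changed by -0.24 (adjusted p = 0.722, limma).

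Hmox1, heme oxygenase 1, which opens heme into biliverdin, carbon monoxide and iron and is a classic NRF2 target, rose 1.5-fold. Its 15 regions summed to 319 and 401 in WT, against 562 and 517 in GrnKO. The groups were apart, at 360 ± 57.3 and 540 ± 32.2 (SD, n = 2), with a log2 change of 0.59 (SE 0.15, adjusted p = 0.016, limma). After subtraction of the change in input the sum changed by -0.85. Its inputs held 51.5 and 13.4 in WT and 82.9 and 49.0 in GrnKO. All 10 tested regions had a positive change. The 1 that passed, chr8:75085862-75086662, lies between genes 7.36 kb before the start and has the highest mean over the 4 libraries. It held 67.3 and 63.1 in WT and 123 and 107 in GrnKO (log2 change 0.81, adjusted p = 0.0327, limma). Its adjusted p was 0.456 without GrnKO replicate 1 and 0.177 without GrnKO replicate 2 (limma). The start region, chr8:75093212-75094012, held 54.0 and 73.9 in WT and 100.4 and 102 in GrnKO. Its groups were apart too, but the change of 0.67 did not pass (adjusted p = 0.0971, limma). It passed without WT replicate 2, at 0.92 (adjusted p = 0.00921, limma), and was 0.46 without WT replicate 1.

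Nfe2l2, which encodes NRF2, had the most regions and rose 1.28-fold. Its 36 regions summed to 2800 and 2816 in WT, against 3612 and 3589 in GrnKO. The replicates lay close together, at 2808 ± 11.5 and 3601 ± 15.99 (SD, n = 2), with a log2 change of 0.36 (SE 0.08, adjusted p = 0.00943, limma). Of 34 tested regions, 28 had a positive change and 18 had both GrnKO values above both WT values, while 1 had both below, and 22 of the 36 share bases with another. The 1 region that passed lies between genes 58.8 kb before the start, at chr2:75763078-75763878. It held 44.6 and 48.5 in WT and 126 and 113 in GrnKO (log2 change 1.34, adjusted p = 0.00170, limma). Its adjusted p was 0.0618 without GrnKO replicate 1 (limma). The start region chr2:75704214-75705014, which holds the promoter sequence with the TGACTCCGC match, held 223 and 300 in WT and 297 and 311 in GrnKO. These groups overlap, and the change of 0.23 did not pass (adjusted p = 0.424, limma). It was 0.46 without WT replicate 2, with a call (adjusted p = 0.0314, limma), and 0.021 without WT replicate 1. The region with the highest mean over the 4 libraries, chr2:75730960-75731760, though not the highest in each library, 26.7 kb before the start, held 276 and 300 against 347 and 328 (0.23, adjusted p = 0.352, limma).

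Each sum was also split into proximal regions, within 1000 bp of a start, and distal ones. Slc11a2 rose in both, by 1.19 (adjusted p = 0.0146, limma) on the log2 scale at its proximal regions and 1.72 (adjusted p = 3.27e-05) at its distal ones. Ftl1, Fth1, Hmox1 and Nfe2l2 passed in their distal sums only, with log2 changes of 0.53, 0.35, 0.56 and 0.38 (adjusted p = 0.0136, 0.0146, 0.0328 and 0.0136, limma). Their proximal changes were 0.43, 0.12, 0.67 and 0.28 (adjusted p = 0.193, 0.726, 0.150 and 0.199, limma). Of all genes, 3.96% were higher in their proximal sums and 11.7% in their distal sums, so calls in distal sums were the more frequent ones over the whole table. The difference between proximal and distal sums was not tested, and at Hmox1 the proximal change was the larger. For Slc40a1, Tfrc and Ncoa4 neither sum passed, and the distal sum of Ireb2 could not be fitted.

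**Figure D4:**
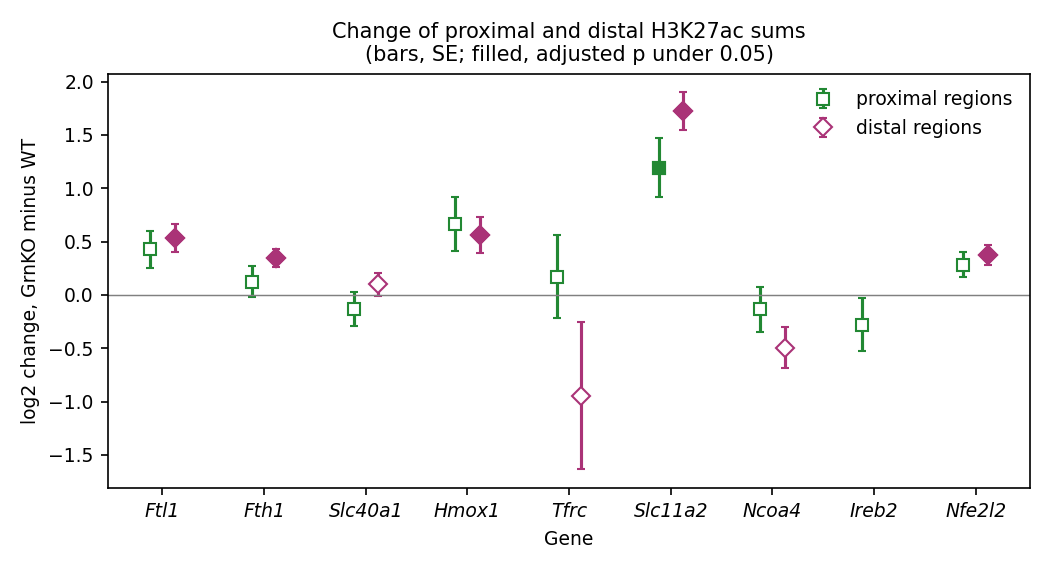
log2 change of H3K27ac summed over proximal regions (squares) and distal regions (diamonds) of each gene. Bars are SE and filled symbols passed the threshold. Both symbols are filled at Slc11a2, and only the diamond is filled at Ftl1, Fth1, Hmox1 and Nfe2l2.

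Regions are of equal width, 800 bp, so promoter levels can be set side by side between genes. By the highest proximal region of each gene, the mean level over the 4 libraries was 283 at Nfe2l2, 218 at Fth1 and 181 at Ftl1. It was 122 at Slc40a1, 113 at Ncoa4 and 82.6 at Hmox1. The lowest were Slc11a2 at 57.3, Ireb2 at 55.8 and Tfrc at 21.3. Nfe2l2 stood at the 96.4th percentile of 21707 tested proximal regions and Tfrc at the 28.7th. Every pair of neighbours in this order overlapped in its 4 values except Ireb2 and Tfrc, whose lowest and highest values were 46.7 and 29.1. For Slc11a2 the highest proximal region is the one annotated as the promoter of Gm5475, and the region annotated as its own promoter had a mean of 25.8. The order pools both genotypes: Slc11a2 was below Ireb2 in WT (32.7 against 62.2) and above it in GrnKO (81.8 against 49.4).

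Of 100 other genes of iron, heme and redox metabolism, 91 were tested, 15 were higher in GrnKO (16.5%) and 5 lower (5.49%), against 9.54% and 4.88% of all genes (limma, Benjamini-Hochberg). The share of lower genes was near that of all genes. The lists were chosen with earlier results of these data known, so these shares are not an independent test. Their median log2 change was 0.04, against -0.0099 over all genes. Of these 20 genes, 14 no longer passed without GrnKO replicate 1 and 13 without GrnKO replicate 2, while Mcoln1, Hfe, Blvra and Sqstm1 passed without either. With the authors' scaling alone 8 did not pass, namely Hfe, Nubp1, Lrp1, Btrc, Osgin1, Abcc1, Cyba and Alox15.

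Among 13 tested genes of iron uptake and transport, 1 rose and 1 fell, with a median of -0.16. Mcoln1, the lysosomal channel that releases iron and calcium, held 93.6 and 76.3 in WT and 177 and 189 in GrnKO (log2 change 1.11, adjusted p = 0.00312, limma). Hfe, a partner of transferrin receptors in iron sensing, held 1081 and 892 against 547 and 574 and fell by 0.81 (adjusted p = 0.000578, limma). The groups were apart at both genes, in opposite directions. With the authors' scaling alone Hfe had an adjusted p of 0.0646 (limma).

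Of 6 tested genes of iron storage and sensing, Aco1 rose and Nubp1 fell, with a median of 0.06. Aco1 encodes IRP1, an aconitase that binds iron-responsive elements once it loses its iron-sulfur cluster. It held 116 and 126 in WT and 225 and 226 in GrnKO (log2 change 0.90, adjusted p = 0.00529, limma). Nubp1, an assembly factor of cytosolic iron-sulfur proteins, held 517 and 593 against 391 and 420 (-0.45, adjusted p = 0.0442, limma). Both lost the call when either GrnKO replicate was left out, with adjusted p of up to 0.0649 and 0.423, and Nubp1 also without WT replicate 2 (adjusted p = 0.120, limma).

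Heme handling had 3 genes that rose and 0 that fell among 13, with a median of -0.0036. Blvra, which reduces the biliverdin that heme oxygenase makes, held 141 and 162 in WT and 370 and 295 in GrnKO (log2 change 1.12, adjusted p = 0.000747, limma). Slc48a1, a heme transporter of lysosomal membranes, rose by 0.93 from low values of 60.8 and 42.1 to 109 and 87.5 (adjusted p = 0.0439, limma). Lrp1, an endocytic receptor for hemopexin among many ligands, rose by 0.32, with 5970 and 6456 against 7524 and 8027 (adjusted p = 0.00997, limma). The last 2 lost the call when either GrnKO replicate was left out, with adjusted p of up to 0.420 and 0.252, and Slc48a1 also without WT replicate 2 (adjusted p = 0.0762, limma). None of 10 tested genes of mitochondrial iron and iron-sulfur clusters passed in limma. The smallest p there was that of Iscu, the scaffold of cluster assembly, at -0.28 (adjusted p = 0.0594, limma), and the list's median was -0.16.

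Among 11 tested partners and repressors of NRF2, 3 rose and 1 fell, with a median of 0.18. Sqstm1, the autophagy receptor p62, which sequesters KEAP1, held 415 and 394 in WT, against 1045 and 977 in GrnKO. The GrnKO values were far above the WT values, and the change was 1.32 on the log2 scale (adjusted p = 5.94e-06, limma). Maff, a small MAF protein that pairs with NRF2, rose by 0.59 (adjusted p = 0.0375), and Btrc, which marks NRF2 for degradation, fell by 0.70 (adjusted p = 0.0255, both limma). Maff and Btrc lost the call when either GrnKO replicate was left out, with adjusted p of up to 0.362 and 0.210. Maff also lost it without WT replicate 2 and Btrc without WT replicate 1 (adjusted p = 0.0557 and 0.0603, limma).

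NRF2 targets and antioxidant enzymes had the highest median of the 7 lists, 0.44, with 5 of 23 tested genes higher and 1 lower. The lower one, Abcc1, an exporter of glutathione conjugates, was named after its values were seen and held 371 and 425 in WT and 266 and 283 in GrnKO (-0.53, adjusted p = 0.0326, limma). It lost this call when either GrnKO replicate was left out (adjusted p up to 0.321) and without WT replicate 2 (0.0844, limma). Gpx4, which reduces lipid hydroperoxides, held 585 and 693 in WT and 874 and 983 in GrnKO (log2 change 0.54, adjusted p = 0.0106, limma). Txn1, thioredoxin, held 437 and 479 against 680 and 632 (0.52, adjusted p = 0.016, limma), and Osgin1, a growth inhibitor induced by oxidative stress, held 2951 and 2933 against 3832 and 4154 (0.44, adjusted p = 0.00262, limma). In all 3 the groups were apart. Each lost the call without GrnKO replicate 2, and Txn1 also without replicate 1, with adjusted p of up to 0.188, 0.259 and 0.116 in this order (limma). Of 15 tested genes of lipid peroxidation and ferroptosis, 2 rose and 1 fell, with a median of 0.04. Cyba, a subunit of the phagocyte NADPH oxidase, rose by 0.42 (adjusted p = 0.00624), Slc3a2, a chain of the cystine transporter, rose by 0.58 (adjusted p = 0.00910), and Alox15, a lipoxygenase, fell by 0.62 (adjusted p = 0.0202, limma for each). Without 1 GrnKO replicate their adjusted p reached 0.134, 0.155 and 0.242 (limma).

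**Figure D5:**
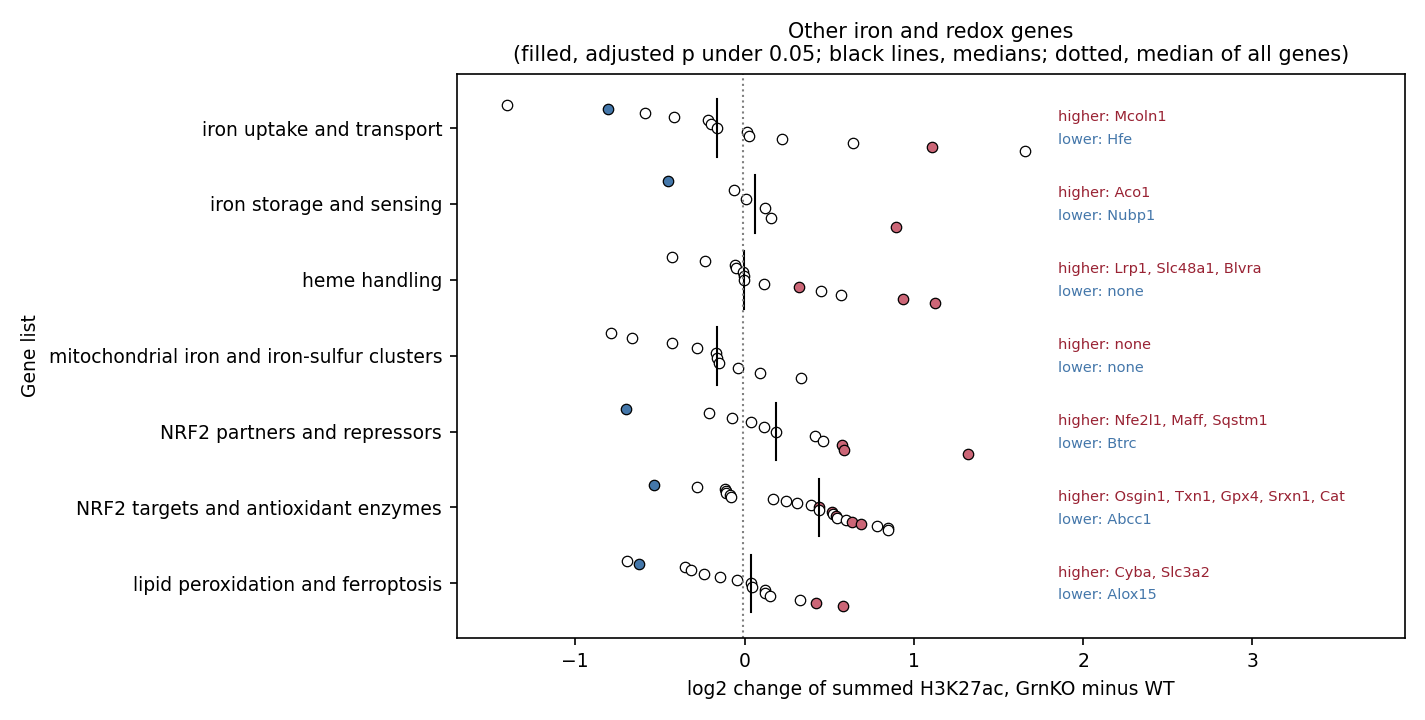
log2 change of summed H3K27ac for the tested genes of 7 lists. Filled points passed the threshold and are named at the right, black lines are list medians and the dotted line is the median of all genes. The line of NRF2 targets and antioxidant enzymes, at 0.44, lies farthest to the right, and most points in every list are open.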

How the data were processed

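The deposited table gives H3K27ac and input signal in 129304 regions of 800 bp, which per the file headers come from merging ATAC-seq peaks that passed an IDR test. The unit is signal: per the file headers, the authors gave tags per region at a library total of 10000000. The submitters' processing notes name Bowtie2, HOMER, DESeq2 and mm10, without versions or roles. Library totals turned 100% of the values in each column into whole read ends at 2 per tag, within 0.005 scaled tags.

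Values were scaled by TMM factors (regions 0.825, 1.04, 1.08 and 1.08 for WT 1, WT 2, GrnKO 1 and GrnKO 2). limma 3.58.1 (lmFit, eBayes with trend, R 4.3.3) was fitted to log2(value + 1) of the 4 H3K27ac libraries, by genotype, over all 80728 regions and, separately, all 15380 gene sums that passed filterByExpr of edgeR 4.0.16 (minimum 10 recovered tags). The log2(value + 1) scale understates changes of low values. p-values were adjusted by Benjamini-Hochberg at 0.05. A gene sum adds all regions with that gene name, and tags in overlapping regions count in each. Floors cover counting error only, since molecular identifiers play no part in these values. SDs and SEs come from the differences between pools.

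Regions named are the one nearest to each start, the strongest and up to 4 past the threshold by p. Up to 3 genes per list past the threshold are named by p, or 1 where none passed. Members, lists and markers were chosen with earlier results of these data known. Some markers are not reported here by name. Start sites in the table lay within 10 bp of a RefSeq start of build GRCm38.p6 for 82 of 82 regions of the 6 members with an entry. Replicates differed by more than sampling noise (chi-square per degree of freedom 5.56 in WT and 3.54 in GrnKO). limma was also tested on simulated tags. Among 15028 genes it recovered 50.5% of 99 changed by 1 and 78.0% of 100 changed by 2 on the log2 scale. Among 76895 regions it recovered 26.8% of 97 and 59.2% of 98 in the same order. False calls were 15 of the 143 genes called and 7 of the 91 regions called. Among genes this share was above the rate set by the threshold, so gene calls near the threshold may be less certain than their adjusted p states. Alternatives were other scalings, no filter, a pseudocount of 5, edgeR's and DESeq2 1.42.0's tests on recovered tags, a replicate block, leaving out each replicate, proximal or distal regions, overlapping regions counted once, and subtraction of the input's change.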

Additional observations from a re-analysis of the deposited data

How the results depend on the processing

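With 2 pools per genotype, limma recovered 26.8% of 97 simulated regions changed by 1 on the log2 scale, among 76895 regions. A region without a call is thus not shown to be alike in both genotypes. Of the 91 regions called in the simulation, 7 were false calls, as were 15 of the 143 genes called. The simulation changed far fewer regions than the 5488 called higher in the data, so its recovery and its share of false calls need not hold for these data. DESeq2 size factors, no filter on low values, a pseudocount of 5, edgeR's quasi-likelihood test, DESeq2's test and overlapping regions counted once kept the calls of all 9 genes. With the authors' scaling alone the median change of all genes was 0.18, the share of called genes that were higher was 90.8% in place of 66.2%, and 3 iron genes were higher. Fth1 was then 0.51 and Nfe2l2 0.55 on the log2 scale, without a call. Proximal regions alone gave 1 gene higher, and 3.96% of all genes in place of 9.54%, with Ftl1 at 0.43, Fth1 at 0.12, Hmox1 at 0.67 and Nfe2l2 at 0.28. Subtraction of the input's change moved the median of all genes to -0.54 and gave 0 higher, with Ftl1 at 1.13, Nfe2l2 at 0.63, Fth1 at -0.38, Hmox1 at -0.85 and Slc11a2 at -0.14. It also turned the sign of Mcoln1 (-2.54), Nfe2l1 (-0.48), Srxn1 (-2.14), Txn1 (-1.33), Slc3a2 (-0.80) and Abcc1 (2.07). Some input sums behind these values were low or uneven between replicates. Mcoln1 held 0 and 0 in WT input and 12.5 and 9.18 in GrnKO input. Ftl1 held 88.3 and 0.53 against 42.7 and 0. In WT input replicate 1, 3 tags were 7.36 scaled tags. Abcc1 was 0.65 over proximal regions and Aco1 -0.065 over distal ones. The cause of these shifts was not tested.

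Leaving out 1 replicate, with a lone sample assumed to vary like the others, gave 4 to 26 member regions higher and 0 to 2 lower, and 1 to 5 genes higher and 0 to 1 lower. The log2 change ranged from 0.41 to 0.61 for Ftl1, 0.32 to 0.34 for Fth1, 0.43 to 0.77 for Hmox1, 0.36 to 0.38 for Nfe2l2 and -0.54 to -0.038 for Ncoa4. Replicate numbers come from the titles and the labels tie them to no shared animal or day, and deviations of samples with the same number correlated at 0.03. With the replicate number as a block, 21 member regions were higher in place of 14 and 0 were lower. All 9 gene calls were as without it, with 5 higher. The share of all tested regions called higher also rose, to 9.17% in place of 6.8%, and that of all genes to 12% in place of 9.54%.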

Other observations

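Further NRF2 targets lay next to the threshold and were picked here after their values were seen. Prdx1, a peroxiredoxin, held 260 and 205 scaled tags in WT and 364 and 312 in GrnKO (log2 change 0.55, adjusted p = 0.0506, limma). Gsr, which regenerates reduced glutathione, held 87.1 and 65.8 against 115 and 150 (0.78, adjusted p = 0.0516, limma). Gclm, the modifier subunit of glutathione synthesis, held 69.5 and 46.2 against 109 and 96.8 (0.85, adjusted p = 0.0591, limma). Each had both GrnKO values above both WT values and did not pass. Besides Abcc1, which was lower past the threshold (-0.53, adjusted p = 0.0326, limma), 6 other targets of the list had values below 0: Nqo1, a quinone reductase, held 6.88 and 17.2 against 7.75 and 13.1 (-0.11), Gclc, the catalytic subunit of glutathione synthesis, held 1699 and 1762 against 1562 and 1645 (-0.11), and Gpx1, Gss, G6pdx and Sod2 were at -0.12, -0.28, -0.082 and -0.084. None of these 6 passed in limma (adjusted p = 0.945, 0.542, 0.633, 0.790, 0.816 and 0.895).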
